A study of Homo sapiens with 2 samples.

Results

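The protein-coding genes SLC6A15, FGD6, EIF4G3, ABR, ZYG11B and HFM1 carry tall contact sites of SNRPA1, a core component of the U2 snRNP of the spliceosome. The 6 genes were chosen by peak height, as genes with a peak of 20 or more tags and no annotated copy of the U2 snRNA gene inside. Their peaks were found by Entrez identifier in the shorter of 2 deposited peak lists, which states a height in tags for every peak and is called the height list. The 6 genes held 11 of the 1373 distinct peaks of that list, and each gene had 1 peak of 20 or more tags. Contacts were mapped by irCLIP, which sequences RNA that was crosslinked to a protein and then pulled down with it. The cells were MDA-231-LM2, derived from the breast cancer line MDA-MB-231 for its spread to the lung, and the antibody was directed at SNRPA1 itself. The 2 biological replicates form 1 group, with no treatment and no genotype label. The height list is named as pooled and the other list, made with the peak caller CLIPper, names no sample, so the replicates cannot be set against each other here, and library depths are not known. Intervals given for tags and reads are 95% intervals that cover counting error only.

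The gene table went against the label for 1 of the 6 genes. In the RefSeq table of assembly GRCh38.p14, ZYG11B contains RNU2-30P, a U2 pseudogene of 141 nt, and 5 of the 6 genes contain no gene of the U2 family. ZYG11B is therefore described on its own below, and summaries are given with and without it. The table also places RNU6-969P, a U6 pseudogene, in ZYG11B and RNU7-200P, a U7 pseudogene, in EIF4G3. SLC6A15 contains an unnamed pseudogene of 154 nt, LOC124903121, whose family the table does not give. The peaks are in hg19 and the table is in another build, so whether any peak lies on one of these copies was not analysed here, nor was whether it lies in an exon, an intron or a UTR.

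SNRPA1 binds the U2 snRNA together with a partner protein, SNRPB2. The U2 particle pairs with the branch site near the 3' end of introns in pre-mRNA, which commits the intron to splicing. Crosslinks of such a protein can thus come from the snRNA itself or from pre-mRNA. Genomes also hold many U2 pseudogenes, and a short read of U2 origin can match several of them. The 6 genes have unrelated functions and were brought together only by the height of their peaks.

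Height chose these sites, so their heights are a description. SLC6A15, which encodes a sodium-dependent transporter of neutral amino acids, had the tallest peak of the 6, with 202 tags (175 to 232 by the exact Poisson interval). It lies on the minus strand of chromosome 12, from 85287771 to 85287804 in hg19. FGD6, which encodes a FYVE-domain protein, followed at 161 tags (137 to 188; chromosome 12, 95519030 to 95519063, minus strand). These sites stood at ranks 7 and 8 of the height list, and their counting intervals overlapped each other. They lay below GSKIP, the sixth site, at 269 tags (238 to 303), and above GREB1, the ninth, at 122 tags (101 to 146), both of which contain a U2 copy. The interval of SLC6A15 overlapped neither of these 2, while that of FGD6 overlapped that of GREB1.

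The other 4 sites were much lower, and their counting intervals overlapped one another. EIF4G3, which encodes a scaffold of the cap-binding translation initiation complex eIF4F, had 34 tags (23.5 to 47.5; chromosome 1, 21445415 to 21445446, minus strand). ABR, which encodes a protein related to BCR, had 26 tags (17.0 to 38.1; chromosome 17, 1088941 to 1088972, minus strand). ZYG11B, which encodes a substrate receptor of a cullin 2 ubiquitin ligase, also had 26 tags (17.0 to 38.1; chromosome 1, 53220019 to 53220051, plus strand). HFM1, which encodes a DNA helicase of meiotic crossover formation, had 21 tags (13.0 to 32.1; chromosome 1, 91852842 to 91852877, minus strand). On the minus strand were 5 of the 6 sites, as were 645 of all 1373 peaks.

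**Figure D1:**
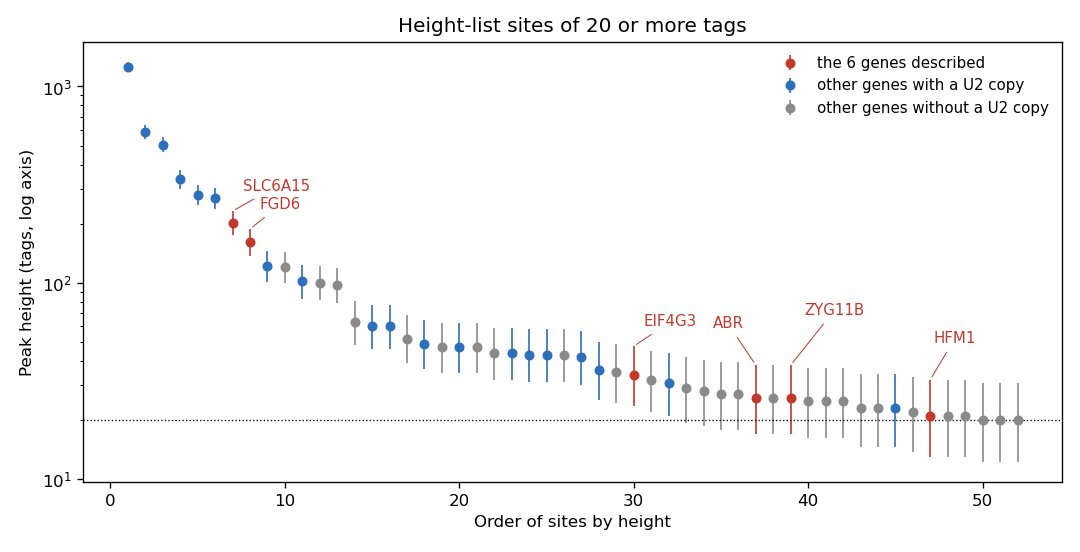
Height in tags (log axis) of the 52 height-list sites of 20 or more tags, in order of height, with 95% Poisson intervals as bars and the threshold as a dotted line. SLC6A15 at 202 tags and FGD6 at 161 tags stand directly below the 6 tallest sites, all in genes with a U2 copy, while EIF4G3, ABR, ZYG11B and HFM1 lie between 21 and 34 tags among many sites of like height.

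Peaks of 20 or more tags made up 3.79% of the height list (52 of 1373), and 3.73% of its genes had one (48 of 1286). Nothing is read from these shares, because the threshold chose the members. Of the 48 genes, 31 (64.6%) contain no U2 copy, so the 5 genes are a selection from a larger group. Just inside the threshold were ANKRD30BL, CADM1 and UGT8 at 20 tags each, and just outside it BRINP3 and SMG6 at 19. The 6 sites together held 470 of 11999 summed tags (3.92%), of which SLC6A15 and FGD6 held most.

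Outside their tall site, 4 of the 6 genes had further peaks in the height list. SLC6A15 and FGD6 had none. EIF4G3 had a second peak of 5 tags, 144855 nt from the tall one, so that 87.2% of its listed tags lay in the tall peak. ABR had one of 4 tags at a distance of 85585 nt (86.7% in the tall peak), and ZYG11B one of 9 tags at 20264 nt (74.3%). These second peaks were far from the tall ones and 2.89-fold to 6.80-fold lower. HFM1 differed in form. Its 3 peaks, of 21, 17 and 11 tags, lay within 253 nt, and the tallest held 42.9% of the listed tags. The counting intervals of the 3 HFM1 peaks overlapped.

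In the CLIPper list, reads of the 6 genes were concentrated within 250 nt of the tall peak, a window that at HFM1 holds several peaks. The list gives intervals with a number of reads, and intervals were taken where they lay within 250 nt of the tall peak on its strand. Under the Ensembl identifier of SLC6A15 the list held 3 intervals, all at the tall site. For FGD6 the only interval elsewhere had 3 reads, against 197 at the tall site (65.7-fold). For EIF4G3 the 3 intervals elsewhere had 3 to 7 reads, against 45 (6.43-fold over the strongest of them). For ABR the 4 elsewhere had 5 or 6 reads, against 53 (8.83-fold). For ZYG11B 1 interval elsewhere had 13 reads, against 279 (21.5-fold), and for HFM1 1 had 4 reads, against 62 (15.5-fold). At HFM1 elsewhere leaves out its peaks of 17 and 11 tags, with 26 and 24 reads, and an interval of 54 reads. These lie inside the window, so the fold for HFM1 does not describe its tallest peak alone. In all 5 genes with intervals elsewhere, the site that is tallest in tags was also the strongest in reads. Height chose these sites and both lists come from the same series, so this is a description and not independent evidence of the concentration.

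Footprints were compact at FGD6, EIF4G3 and ABR. Their peaks were 34, 32 and 32 nt wide, between the points where the height falls to 50% per the file's name. Each was covered by 2 abutting CLIPper intervals that together spanned 37, 36 and 38 nt and passed the peak's edges by 1 to 3 nt. Both intervals of a pair had the same number of reads, 197 at FGD6, 45 at EIF4G3 and 53 at ABR. Of 1035 abutting pairs in the whole CLIPper list 85.4% had equal reads, so neighbouring intervals are not separate counts and their reads are not added up here. The median span of CLIPper intervals within 250 nt was 37 nt over the 1335 peaks of the height list that lie on a CLIPper interval (97.2% of peaks).

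SLC6A15 had a longer footprint with a tail on 1 side. The peak was 34 nt wide, as at FGD6, but its CLIPper intervals spanned 61 nt. In the direction of the strand an interval of 24 nt with 294 reads came first, then one of 32 nt with 333 reads and one of 5 nt with 40 reads. The first 2 lay on the peak, passing its 5' edge by 2 nt and its 3' edge by 20 nt. The interval with the most reads thus reached beyond the 3' edge of the peak.

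ZYG11B had its overhang on the other side. An interval of 55 nt with 279 reads passed the 5' edge of the 33 nt peak by 22 nt and ended level with its 3' edge. This interval carries the Ensembl identifier under which the second ZYG11B site is also listed, ENSG00000162378.8. A second interval of 41 nt lies inside it on the same strand, also with 279 reads, under the identifier ENSG00000252018.1. The sources used here pair that identifier with no name, and none of the 5 other sites had a second identifier.

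HFM1 had a broad footprint. Its 6 CLIPper intervals spanned 287 nt and had, in the direction of the strand, 24, 8, 26, 54, 62 and 24 reads. The strongest, 58 nt long, passed the tallest peak by 11 nt on both sides. The interval with 54 reads, 64 nt long, had no peak of the height list on it. The HFM1 peaks were also wide, at 36 and 43 nt for the 2 taller ones, where 0.583% of all peaks were 36 nt or wider and 0.146% were 43 nt or wider.

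**Figure D2:**
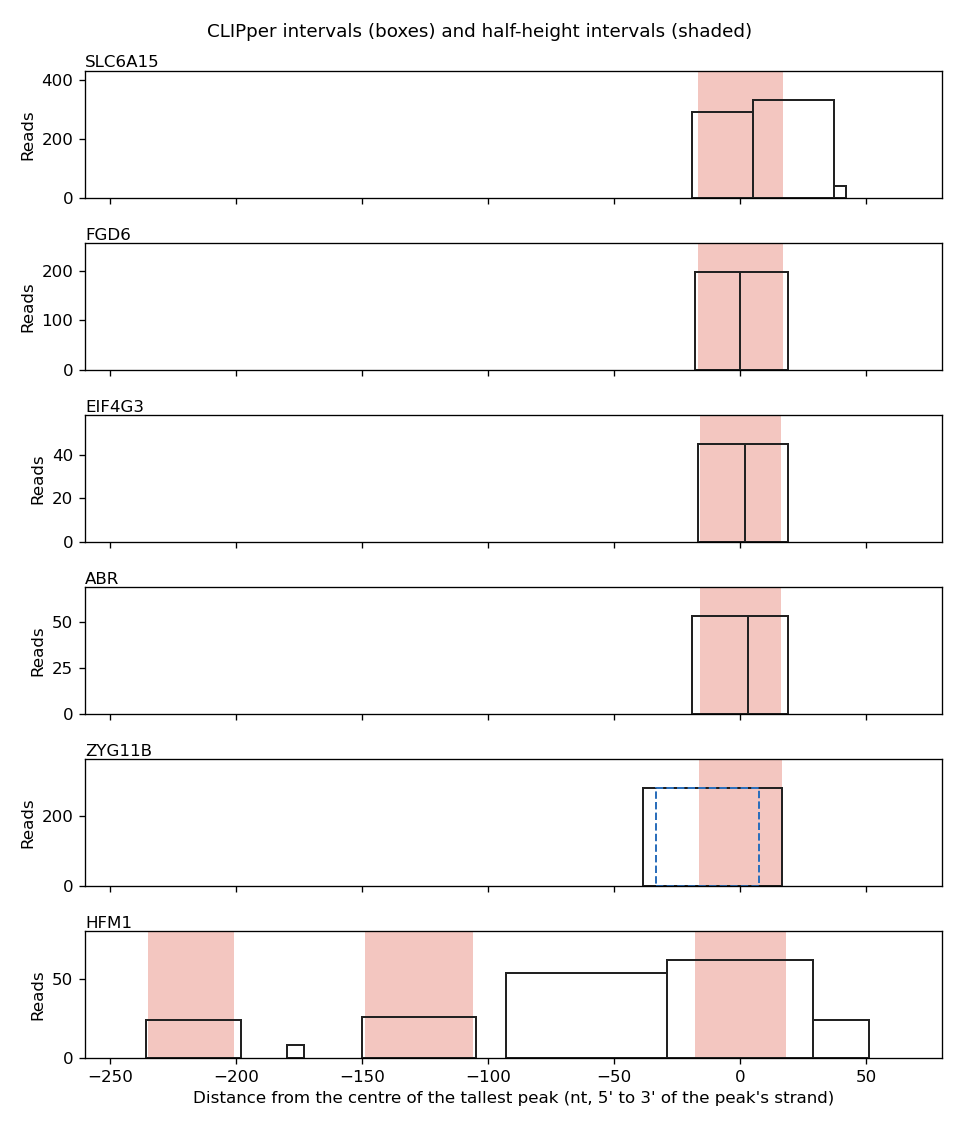
CLIPper intervals (boxes, reads as height, a separate scale per gene) and height-list peaks (shaded) against the distance in nt from the centre of each gene's tallest peak, 5' to 3' on the peak's strand. The dashed box is the second Ensembl identifier at ZYG11B. FGD6, EIF4G3 and ABR have spans of 36 to 38 nt, SLC6A15 reaches past the 3' edge, ZYG11B past the 5' edge, and HFM1 spans 287 nt with 3 peaks.

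Spans over 100 nt occurred at 1 of the 6 sites (HFM1) and at 3.15% of all peaks on a CLIPper interval. Among peaks under 20 tags the share was 2.10%, so the other tall sites are set beside the 6, without a test because height chose both sides. Among the other 27 tall sites in genes without a U2 copy, 5 had a span over 100 nt. They lay in PDE3A (117 nt), PID1 (225 nt), LINC00486 (273 nt) and ANKRD30BL (373 and 533 nt). Among the other 19 tall sites in genes with a U2 copy, 9 did, with a longest span of 178 nt. They lay in WDR74, RUVBL1, LINC00910, RUBCNL, HDAC8 and EGFEM1P. The tall sites of LINC00910 share the same intervals and span (167 nt), as do those of RUVBL1 (151 nt). Their spans are thus counted more than once, and the 9 are not separate footprints. The median span was 38 nt over the 5 sites in genes without a U2 copy, 39 nt over the 27 and 55 nt over the 19, with these repeats included. The median peak width was 34, 33 and 34 nt in the same order, so these widths differed by no more than 1 nt.

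Reads per tag lay between the quartiles of the list at SLC6A15, EIF4G3 and ABR, just below them at FGD6 and above them at HFM1 and ZYG11B. The ratio divides the reads of the strongest CLIPper interval on the peak by the height in tags. That interval was 58 nt long at HFM1, 55 nt at ZYG11B, 32 nt at SLC6A15 and at most 22 nt at ABR, FGD6 and EIF4G3. The ratio was not adjusted for this length. Tags are unique per the name of the height list, and the sources used here do not say if the CLIPper reads were too. The ratio has the height as its divisor and is a description. Its intervals treat reads and tags as independent counts. Both come from the same series and reads may be repeated, so these intervals need not hold at the 95% level. Over the 1335 shared peaks its median was 1.67, with quartiles of 1.25 and 2.25. FGD6 had 197 reads and a ratio of 1.22 (95% interval 0.989 to 1.52), and EIF4G3 had 45 reads and 1.32 (0.829 to 2.13). SLC6A15 had 333 reads and 1.65 (1.38 to 1.97), and ABR 53 reads and 2.04 (1.25 to 3.40). HFM1 had 62 reads and 2.95 (1.77 to 5.10), higher than 88.8% of shared peaks or equal to them. The interval of HFM1 lay above that of FGD6, and those of SLC6A15, EIF4G3 and ABR overlapped both.

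ZYG11B stood apart with 279 reads for 26 tags, a ratio of 10.7 (95% interval 7.17 to 16.7), the ninth highest of the 1335. Its second site, with 13 reads and 9 tags, had a ratio of 1.44 (0.571 to 3.83). A ratio of 5 or more was reached by 1 of the 6 sites and by 2.40% of shared peaks. Of the 32 such peaks, 28 were under 20 tags, as were 1283 of all 1335 shared peaks. In genes without a U2 copy lay 28 of the 32, and only 25 of the 1286 genes of the list contain a copy. These counts therefore do not show that high ratios favour low peaks or genes without a U2 copy. Of the 8 peaks with a higher ratio than ZYG11B, 7 were under 20 tags and in genes without a U2 copy, where most shared peaks lie. Among these 7 were HCN4 (140 reads, 3 tags), WDR27 (118 reads, 9 tags) and NREP (151 reads, 13 tags). Among the other 27 tall sites without a U2 copy the highest ratio was that of PI4K2B, 3.64. Of the 19 other tall sites with a U2 copy 3 reached it, KIF24 at 9.30 and 2 sites of LINC00910 at 10.4 and 18.8. The median ratio was 1.84 over all 6 sites and 1.65 over the 5 without ZYG11B, beside 1.57 over the 27 and 1.68 over the 19. At the other end, BANK1 had 4 reads for 29 tags, a ratio of 0.138, so the tags are not in every case part of the CLIPper reads.

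**Figure D3:**
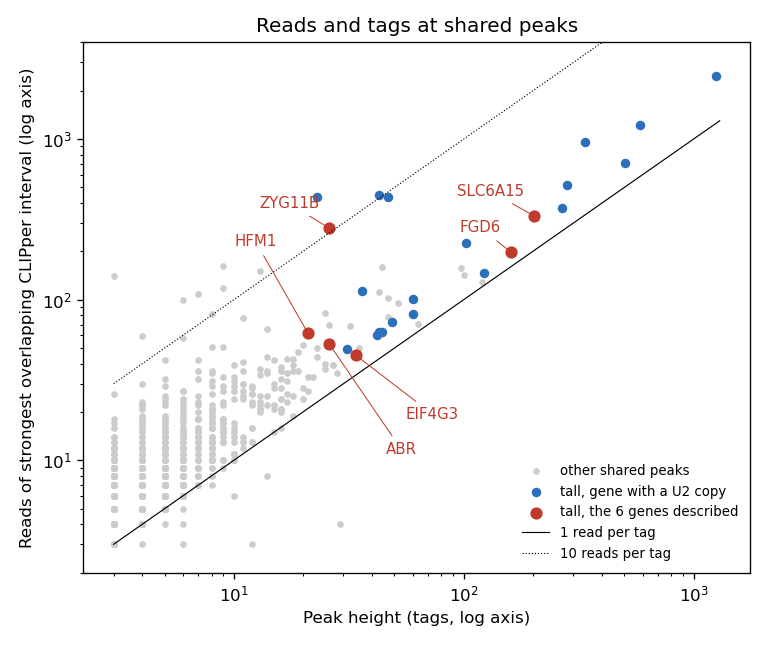
Reads of the strongest overlapping CLIPper interval against peak height in tags (both log axes) for the 1335 shared peaks, with lines at 1 and 10 reads per tag. SLC6A15, FGD6, EIF4G3, ABR and HFM1 lie among the other peaks between 1.22 and 2.95 reads per tag, and ZYG11B lies at 10.7, a ratio that 3 tall sites in genes with a U2 copy and several low peaks come near or pass.

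A second Ensembl identifier at the site was found for 1 of the 6 sites, ZYG11B, and for 6.67% of shared peaks. This measure does not use the height. It may not be independent of the grouping by U2 copy, because an annotated gene inside another can bring a second identifier. The shares below are therefore a description. Among the other tall sites in genes without a U2 copy it was found at 1 of 27, HAUS7. Among those with a U2 copy it was found at 15 of 19, the exceptions being 3 sites of LINC00910 and the lower site of RUVBL1. The 5 genes without a U2 copy thus had 0 of 5. ZYG11B was the only one of the 6 with a U2 copy, a second identifier and a ratio of 5 or more reads per tag. A gene absent from the annotation behind the CLIPper list could give no second identifier, and the sources used here do not name it.

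The height list also gives each peak a value called PH0. Its definition is not in the sources used here. It is the same for all peaks of a gene in each of the 138 genes with 2 or more peaks. PH0 is written with 2 decimals, so ratios to it carry bounds from rounding. Of the 1286 genes, 1066 are listed at 0.00, where rounding could hide a difference between peaks. PH0 was 0.12 in SLC6A15, 0.04 in FGD6, 0.02 in HFM1, 0.01 in ABR and ZYG11B and 0.00 in EIF4G3. PH0 times the gene length, divided by the peak width, came to 188 tags in SLC6A15 (rounding bounds 180 to 196), where 202 were listed, and to 166 in FGD6 (145 to 186), where 161 were listed. In HFM1 it was 81.8 (61.4 to 102) against 49 listed, and in ABR 70.7 (35.3 to 106) against 30. Over the 7 genes of the list with a PH0 of at least 0.1, this product was 0.727 to 1.45 times the listed tags. In these 7 genes PH0 thus ran near the value that the listed tags would give if spread evenly over the gene, and in SLC6A15 and FGD6 all listed tags were those of the tall peak. Gene lengths are from GRCh38.p14 and may differ from those behind the list.

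Height over PH0 did not follow the order of the heights. It was 1683 in SLC6A15 (rounding bounds 1616 to 1757) and 4025 in FGD6 (3578 to 4600). Both values lay near gene length over peak width, 1568 and 4139, in the same order. The height may enter PH0 as well, so no counting error is attached to these ratios. ABR and ZYG11B had 2600 each (1733 to 5200), and HFM1 had 1050 (840 to 1400). For EIF4G3 PH0 is listed at 0.00, which by rounding means a ratio of at least 6800. Among the 6 tallest U2 hosts, WDR74, with a PH0 of 7.13, had 176, LINC00910 459 and GSKIP 708, all below the 6 sites described here. RUBCNL had 2240, RUVBL1 2344 and IFT88 4014, within their range. WDR74, LINC00910 and GSKIP are also shorter genes, of 8905, 19054 and 23765 nt, while the 6 genes described are 53309 to 370606 nt long. The ratio was not adjusted for gene length, so it does not rank these genes by strength of contact. With sites listed at 0.00 entered at their lower bound, the median was at least 2600 over the 5 sites in genes without a U2 copy, at least 4400 over the 27 and at least 2240 over the 19. Such sites numbered 1, 12 and 2, and those among the 27 had bounds of 4000 to 24000.

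**Figure D4:**
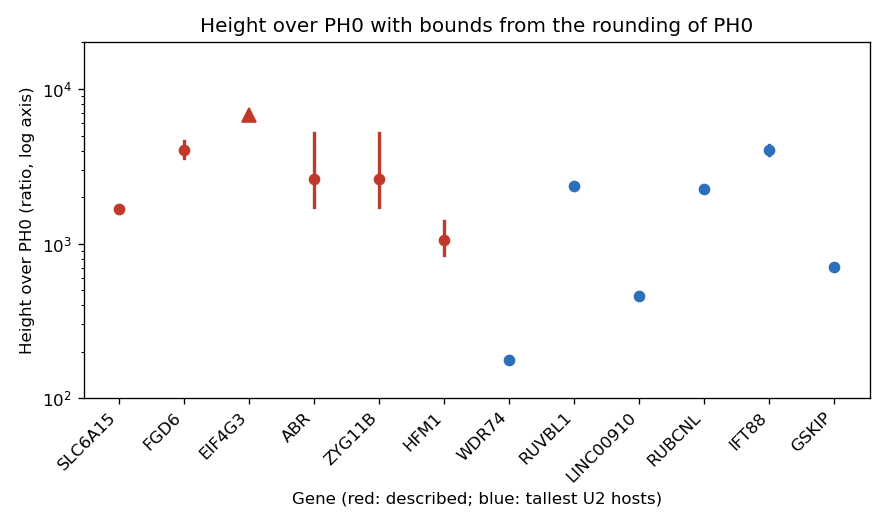
Height over PH0 (log axis) of the tallest site of each gene described (red) and of the 6 tallest U2 hosts (blue), with bars for the rounding of PH0 to 2 decimals. The triangle is the lower bound of EIF4G3 at 6800. FGD6 is at 4025 and SLC6A15 at 1683, and WDR74 (176), LINC00910 (459) and GSKIP (708) lie below all 6 genes described. These hosts are shorter genes than the 6, and the ratio is not adjusted for gene length.

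The deposited P did not follow height either. P was 1e-100, the lowest value in the list, in FGD6, EIF4G3 and ABR, that is at 3 of the 6 sites, and at 19.6% of all peaks. SLC6A15, taller than these, had 1.03e-09, ZYG11B 1.94e-09 and HFM1 2.77e-09. Peaks at the lowest P were as low as 5 tags. The 3 HFM1 peaks share 1 P although they have 21, 17 and 11 tags, and so do the ZYG11B peaks of 26 and 9 tags. The second peak of EIF4G3 had 2.09e-06 and that of ABR 0.00625. P therefore does not rank the tall sites among themselves.

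Other tall sites in genes without a U2 copy were KIAA1217 at 120 tags, MYO1D at 100, XKR4 at 97 and SH3BP5 at 63. TSHR had 52, HAUS7 and PRKG2 47 each, PI4K2B 44 and PDE3A 43. Between SLC6A15 and FGD6 on one side and EIF4G3 on the other there were thus 10 such sites, the lowest being GRM8 at 35. The remaining sites, from ZNF385D, BANK1, FHIT, CSMD1, DNM3, SCN9A, ANKRD30BL (2 sites), LINC00486, NOD1, GRAMD4, ITPR2, RGPD8, PID1, SPOCK1, CADM1 and UGT8, lay between 20 and 32 tags. SLC6A15 and FGD6 were the 2 tallest of all sites in genes without a U2 copy, and the counting interval of FGD6 overlapped that of KIAA1217 (99.5 to 143).

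Relatives of the 6 genes held peaks about as often as protein-coding genes at large. Of 53 relatives in the 6 families searched 3 had a peak (5.66%), SLC6A6, PAIP1 and CUL2, beside 6.02% of all protein-coding genes in the table. SLC6A6, a taurine transporter gene, had a peak of 3 tags (0.619 to 8.77), and it and SLC6A15 were the 2 genes with a peak of the 19 of solute carrier family 6 in the table. PAIP1, which encodes a partner of poly(A)-binding protein in translation, had 4 tags (1.09 to 10.2), and it and EIF4G3 were 2 of 16 genes of eIF4F and its partners, so that EIF4G1 and EIF4G2 had no listed peak. CUL2, the scaffold of the ligase that ZYG11B serves, had 4 tags (1.09 to 10.2), and it and ZYG11B were 2 of 7. FGD6 was the only 1 of 6 FGD genes, ABR of the pair ABR and BCR, and HFM1 of 9 crossover genes. The peaks of the relatives were thus at or near the median height of the list, 4 tags.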

How the data were processed

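The 2 peak lists of SNRPA1 irCLIP in MDA-231-LM2 cells were the input. The CLIPper list gives a p-value per interval, deposited by the authors, with reads in the interval's name. The height list gives a signal per interval deposited by the authors, the peak height in tags, and its file name marks it as pooled. Per the submitters' processing notes, cutadapt 1.10, BWA 0.7 and build hg19 were used. All such values are the authors' and only describe or rank peaks within a list. Positions are 1-based hg19.

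Entries that repeat an interval were counted once. Entrez identifiers matched the RefSeq table of GRCh38.p14 for 1444 of 1454 entries, and U2 copies are the 71 genes there whose symbol begins with RNU2. The members and the gene families were chosen with earlier results of these data known. Genes named are the 6, all others of 20 or more tags without a U2 copy, those just below, the tallest U2 hosts and relatives with a peak. KIF24, GREB1, HCN4, WDR27 and NREP were named after their values were seen.

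Overlap means at least 1 nt on the same strand. Tags carry exact Poisson intervals, ratios of counts exact binomial intervals that take the counts as independent, all at the 95% level. No test was made. The interval search was tested on simulated data. Sequences were not used here for lack of an hg19 genome. Tools were numpy 2.4.6 and scipy 1.17.1 under Python 3.11.15, pandas 2.3.3, and, for figures, matplotlib 3.10.9.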

Additional observations from a re-analysis of the deposited data

How the results depend on the processing

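Of 11 alternatives to the summary values 5 kept them and 6 moved them. Genes without a U2 copy numbered 31 at 20 tags, 109 at 10 tags and 7 at 50 tags, as fewer peaks pass a higher threshold by construction. The CLIPper intervals at the 6 tall sites numbered 17 within 250 nt and 11 by direct overlap. The 6 lost ones lay beside the tall peaks, and some of those in HFM1 lay on its lower peaks. The median of reads per tag rose from 1.84 to 3.69 when the reads of all intervals within 250 nt were summed. Such a sum can count the same reads more than once, and all 6 single sites moved the same way. The median of height over PH0 was 2600 over the 5 tall peaks with a PH0 above 0.00 and 1050 over all such peaks of the 6 genes, which include lower ones. The footprint was 33.5 nt by peak width and 46.5 nt by CLIPper span. The median without ZYG11B was chosen after the data were seen. Containment of U2 copies on the same strand was not run, because the gene table used here gives no strand. Depth is unknown and limits every count. No paired analysis was possible because there is only 1 group of samples. Results without 1 replicate could not be had, as both lists merge the replicates or name none.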
